A study of Homo sapiens with 8 samples.

Results

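CDK2, its E- and A-type cyclins and the genes that switch the complex on or off or mark its cyclin for destruction were followed in HCT-116 cells, an established human colorectal cancer line. The 10 genes, chosen by name with earlier results of these data known, were CDK2, CCNE1, CCNE2, CCNA1, CCNA2, CDC25A, FBXW7, SKP2, CKS1B and CKS2. All 12 probes that carry these names, of 50599 probes, were taken. Of these, 11 probes of 9 genes were bright enough to be tested, among 28677 tested probes in all. The CCNA1 probe was not. RNA was hybridised to 8 one-colour Agilent arrays, 2 biological replicates for each of 4 groups. WT cells were the untreated parental line. WT+NU6102 were the same cells given 20 µM of NU6102, an inhibitor of CDK1 and CDK2, for 24 h. The inhibitor was dissolved in DMSO, and no solvent control is named for the WT arrays. The effects of NU6102 and of its solvent therefore cannot be told apart here. Below, a change ascribed to NU6102 is the difference of treated from untreated WT cells. CDK2-/- cells were the purchased knockout derivative of the line, untreated. R50 cells were HCT-116 cells that had become resistant to NU6102 and were kept in 50 µM of it. In comparisons of R50 with untreated cells, resistance and exposure to NU6102 and its solvent therefore cannot be told apart. The sources used here do not say whether CDK2-/- or R50 is a single clone, nor which part of CDK2 is deleted. Nor do they say whether the replicates of a group were separate cultures.

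Cyclin E joins CDK2 late in G1 phase and drives entry into S phase, and cyclin A replaces it as the partner during S phase. CDC25A removes inhibitory phosphates from CDK2. FBXW7 is the substrate receptor of the SCF ubiquitin ligase that recognises phosphorylated cyclin E, and SKP2, with its cofactor CKS1, is the receptor that recognises the CDK inhibitor p27. The CCNE1, CCNE2, CCNA2, CDC25A and CDC6 genes are known targets of E2F transcription factors, which the retinoblastoma protein holds in check until CDKs phosphorylate it.

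Of the 58717 gene spots on an array, 32376 to 36206 were well above background, and no spot was saturated. The replicates of a group correlated at 0.994 to 0.996. CDK2-/- and R50 arrays shared slide 1, while both kinds of WT array were on slide 2. Only the contrasts of WT+NU6102 with WT cells and of R50 with CDK2-/- cells were therefore measured within a slide. For all others the slide and the group cannot be told apart. Of 7 colorectal epithelial markers, 6, among them EPCAM, KRT8, KRT18 and CDX2, were well above background on every array, and VIL1 on none. Of 6 fibroblast markers 1 was, of 4 leukocyte markers 2 were and of 2 endothelial markers 1 was.

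Each level is the log2 signal of a 60-base probe minus the 75th percentile of its array, so that 0 is the 75th percentile. Such levels can be compared between groups for 1 probe but not between probes. The letters read by the probes of CDK2, CCNE1, CCNA2, SKP2 and CKS1B are shown because the results on these genes rest on them. For CDK2 and CCNE1 the first 30 of the 60 bases are given. By the array annotation, in hg19, the CDK2 probe lies at chr12:56365789-56365848 (plus strand), the CCNE1 probe at chr19:30315106-30315165 (plus strand), the CCNA2 probe at chr4:122739995-122740054 (minus strand) and the SKP2 probe at chr5:36170472-36170531 (plus strand). The dimmer CKS1B probe spans 3242 bases of the genome, chr1:154947230-154950471 (plus strand), and so crosses an exon junction.
CDK2 probe, first bases: tgctgccacaatgtttataaaggccaaatg
CCNE1 probe, first bases: gggctgccctctccacattatcagttgaca
CCNA2 probe: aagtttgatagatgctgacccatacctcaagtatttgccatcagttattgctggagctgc
SKP2 probe: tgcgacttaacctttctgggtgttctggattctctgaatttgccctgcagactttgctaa
CKS1B dimmer probe: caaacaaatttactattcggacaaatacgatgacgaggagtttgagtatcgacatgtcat

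CDK2, the targeted gene, was lowest in CDK2-/- cells but was not lost from the arrays. Its level was −0.76 and −0.76 on the WT arrays, −0.44 and −0.42 with NU6102, −1.56 and −1.51 in CDK2-/- cells and −1.098 and −1.093 in R50 cells. The 4 groups did not overlap, and every array was well above background. CDK2-/- cells held 58.5% of the WT signal, which is −0.77 on the log2 scale (SE 0.04, limma adjusted p = 0.000268). R50 cells were lower than WT (log2 fold change −0.34, adjusted p = 0.00671), and within a slide they were higher than CDK2-/- cells by 0.44 (adjusted p = 0.00139). NU6102 raised CDK2 by 0.33 (adjusted p = 0.00233). Since the deleted part is not given in the sources used here, the remaining signal checks neither the knockout nor its label. In RNA of a whole culture, fewer cells expressing a gene and less RNA per cell cannot be told apart, here and for every gene that follows.

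The CDK2 and CCNA2 probes were each printed on 10 spots per array, which gives the spread of the measurement within an array. The SD over the spots of an array ran from 0.04 to 0.08 log2 units for CDK2 and from 0.05 to 0.08 for CCNA2. On R50 replicate 1 only 8 CDK2 spots were usable. The highest CDK2 spot of any CDK2-/- array was at −1.37 and the lowest of any R50 array at −1.17, so the spots of these groups did not overlap. Spots of an array repeat the measurement of 1 RNA sample and do not show the spread between replicates.

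**Figure D1:**
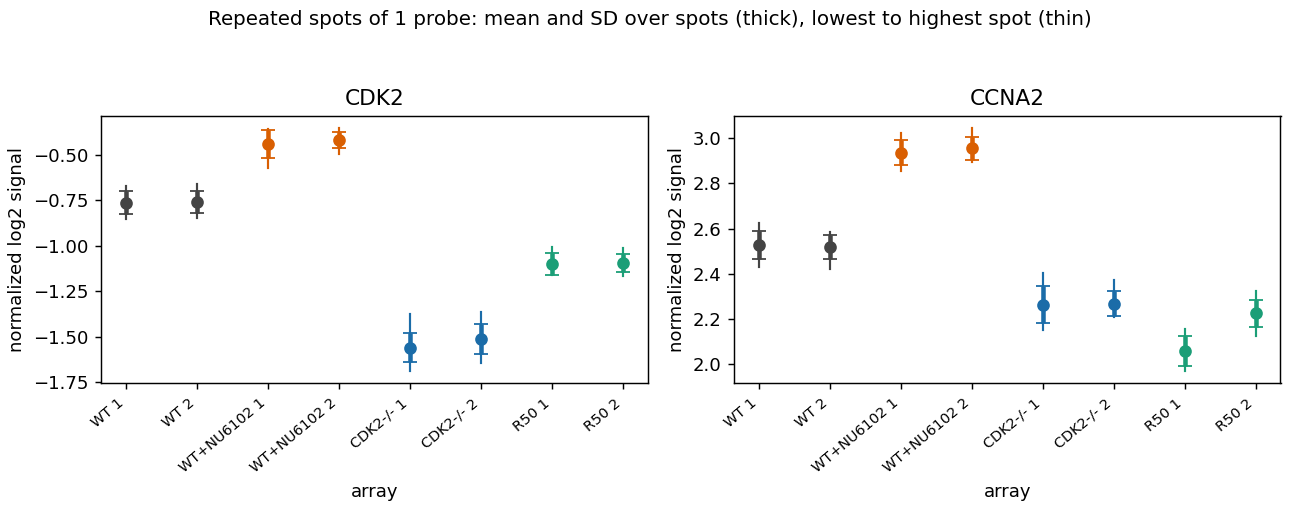
Normalized log2 signal (y axis) of the CDK2 probe (left) and the CCNA2 probe (right) on each of the 8 arrays (x axis), coloured by group. Points are means over the repeated spots of an array, thick bars the SD over spots, and thin lines run from the lowest to the highest spot. The CDK2 spots of CDK2-/- arrays all lie below those of R50 arrays, while for CCNA2 the CDK2-/- arrays, at 2.26 and 2.27, and the R50 arrays, at 2.06 and 2.23, have spots in common.

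The E-type cyclin genes stood well above WT both with NU6102 and in CDK2-/- cells, and not in R50 cells. CCNE1, which encodes cyclin E1, was at 4.53 and 4.61 in WT cells, 5.76 and 5.72 with NU6102, 5.32 and 5.28 in CDK2-/- cells and 4.29 and 4.18 in R50 cells. No array of one group reached the range of another. NU6102 raised CCNE1 2.24-fold (log2 fold change 1.17, SE 0.06, limma adjusted p = 0.000166). In CDK2-/- cells it was 1.65-fold above WT (0.73, adjusted p = 0.000794), and lower than with NU6102 (−0.44, adjusted p = 0.00176). R50 cells stood at the other end of the order, −0.33 against WT (adjusted p = 0.0158). That call held in 5 of 8 fits with an array left out and was lost without WT replicate 1, WT replicate 2 or R50 replicate 2 (−0.39 to −0.28), and when the dim probes were also tested (adjusted p = 0.0759). Against CDK2-/- cells the difference within a slide was −1.06 (adjusted p = 0.000224).

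CCNE2, which encodes cyclin E2, has a brighter and a dimmer probe, and both gave the same order. The brighter probe was at 1.16 and 1.23 in WT cells, 2.54 and 2.60 with NU6102, 2.66 and 2.67 in CDK2-/- cells and 1.076 and 1.001 in R50 cells. The WT+NU6102 and CDK2-/- arrays were thus high and the WT and R50 arrays low. NU6102 raised it 2.59-fold (log2 fold change 1.37, SE 0.05, limma adjusted p = 0.000111), and CDK2-/- cells were 2.78-fold above WT (1.47, adjusted p = 7.26e-05). The dimmer probe gave 1.08 (adjusted p = 0.000345) and 1.19 (adjusted p = 0.000397). CDK2-/- and NU6102-treated cells did not differ beyond their spread, with a difference of 0.10 on the brighter probe (95% interval −0.03 to 0.24, adjusted p = 0.174). R50 cells were below CDK2-/- cells within a slide (−1.63, adjusted p = 5.29e-05).

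The 2 CCNE2 probes parted only over R50 against WT. The brighter probe differed by −0.15 (95% interval −0.29 to −0.02, limma adjusted p = 0.0983) and was not called, while the dimmer one, at −1.995 and −1.80 in WT and −2.23 and −2.29 in R50 cells, differed by −0.36 (adjusted p = 0.0263). That call was lost when any of 6 of the 8 arrays was left out, with values from −0.46 to −0.27, and after normexp background correction (−0.19, adjusted p = 0.0648).

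The A-type cyclins followed another order. CCNA1, the cyclin A1 gene, known for its part in the germ line, was not well above background on any array, with readings between −6.94 and −5.26, and was not tested. CCNA2, which encodes the cyclin A2 of dividing body cells, was at 2.53 and 2.52 in WT cells, 2.94 and 2.96 with NU6102, 2.26 and 2.27 in CDK2-/- cells and 2.06 and 2.23 in R50 cells. The treated cells lay above WT, and both CDK2-/- and R50 below. NU6102 raised it by 0.42 (SE 0.06, limma adjusted p = 0.00382), and by 0.24 after quantile normalization. CDK2-/- cells differed from WT by −0.26 (adjusted p = 0.0321), a call that held in 2 of 8 fits with an array left out, those without an R50 array, with values from −0.26 to −0.25. R50 differed by −0.38 (adjusted p = 0.0141), which was not called without WT replicate 1 or WT replicate 2 and ran from −0.46 to −0.30. R50 and CDK2-/- did not differ beyond their spread (−0.12, 95% interval −0.28 to 0.04).

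**Figure D2:**
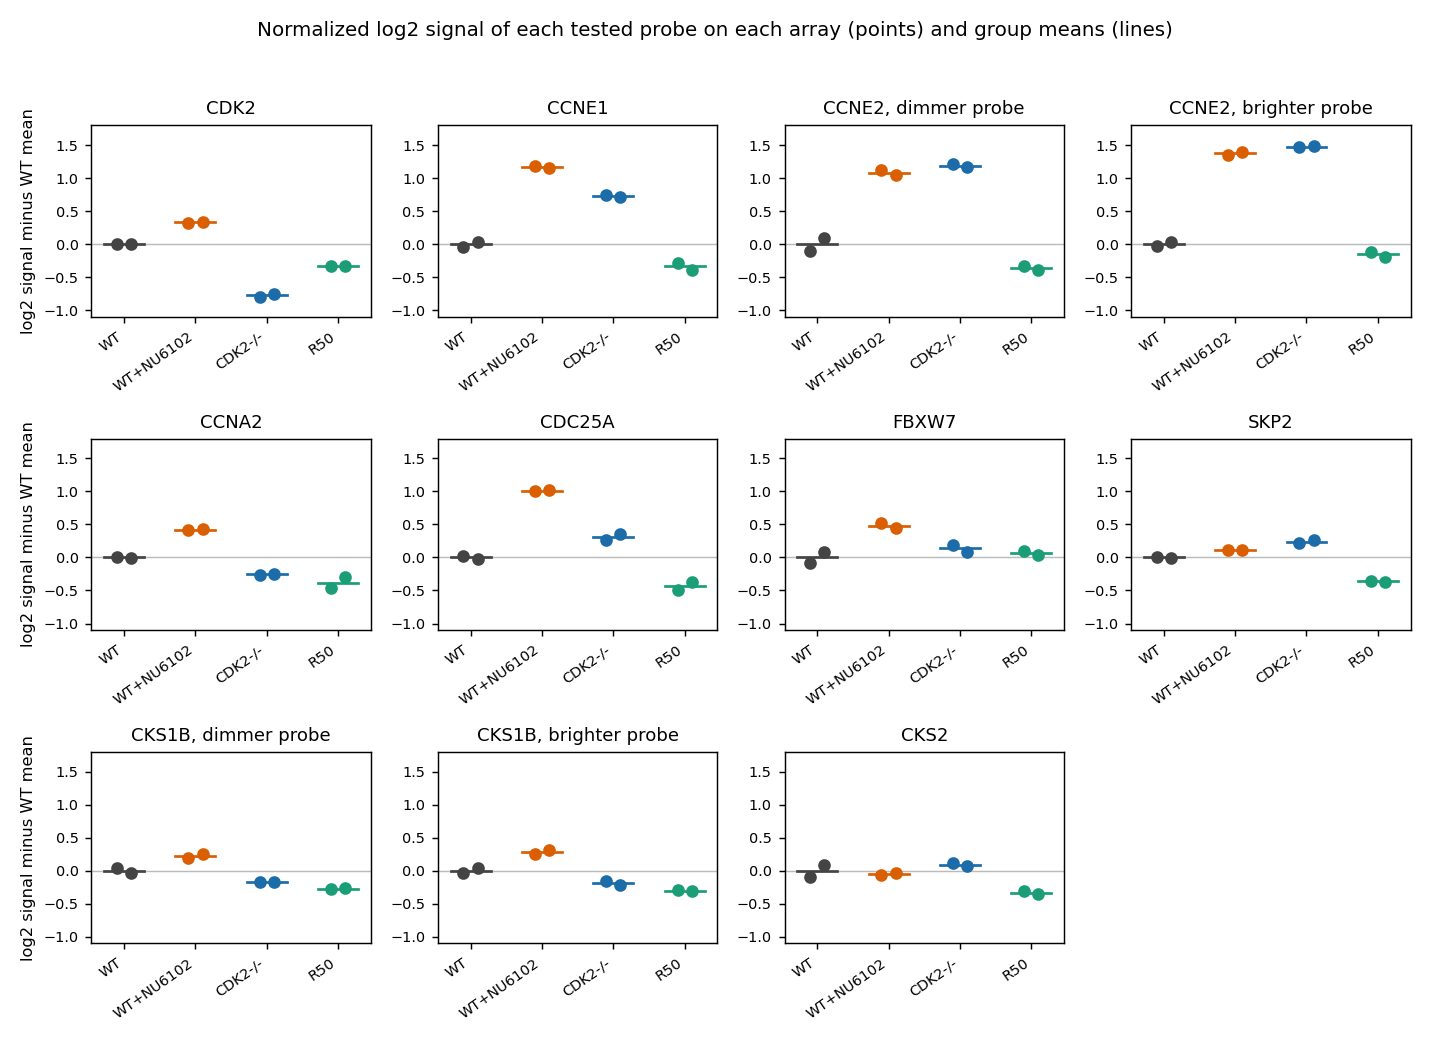
Normalized log2 signal of each tested probe minus its WT mean (y axis), for the 4 groups (x axis). Points are single arrays and lines the means of 2 arrays. In WT+NU6102 the highest points are those of CCNE1, CCNE2 and CDC25A, in CDK2-/- both CCNE2 probes are the highest and CDK2 the lowest, and R50 lies at or below WT for all probes but that of FBXW7.

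CDC25A, the phosphatase that activates CDK2, followed the order of CCNE1. It was at 0.78 and 0.73 in WT cells, 1.77 and 1.77 with NU6102, 1.02 and 1.11 in CDK2-/- cells and 0.26 and 0.39 in R50 cells. All neighbours in that order were apart. NU6102 raised it 2.02-fold (log2 fold change 1.01, SE 0.06, limma adjusted p = 0.000265). CDK2-/- cells were 0.31 above WT (adjusted p = 0.0179), not called without WT replicate 1, WT replicate 2 or CDK2-/- replicate 2 (0.26 to 0.35 over all 8 omissions). R50 cells differed by −0.43 from WT (adjusted p = 0.0096), not called without WT replicate 1 (−0.49 to −0.37), and by −0.74 from CDK2-/- cells (adjusted p = 0.000865).

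Of the receptors that direct cyclin E and p27 to destruction, FBXW7 was at 0.23 and 0.38 in WT cells, 0.82 and 0.76 with NU6102, 0.50 and 0.40 in CDK2-/- cells and 0.40 and 0.34 in R50 cells. The treated arrays lay above all others. It rose with NU6102 by 0.48 (SE 0.07, limma adjusted p = 0.00384), and differed by 0.14 in CDK2-/- (95% interval −0.04 to 0.33) and 0.07 in R50 cells (95% interval −0.12 to 0.25), neither of them called. SKP2 was at 0.87 and 0.86 in WT, 0.97 and 0.97 with NU6102, 1.08 and 1.13 in CDK2-/- and 0.51 and 0.50 in R50 cells. SKP2 in R50 thus lay below every other array, with −0.36 against WT (adjusted p = 0.00547) and −0.60 against CDK2-/- (adjusted p = 0.000525), and both calls held whichever array was left out. In CDK2-/- cells it was 0.24 above WT (adjusted p = 0.0127), not called without WT replicate 1, WT replicate 2 or CDK2-/- replicate 2 (0.21 to 0.26). Its value with NU6102 was 0.11 (95% interval −0.00 to 0.22, adjusted p = 0.1002) and was not called.

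The Cks genes encode small proteins that bind CDKs, CKS1 being also needed by SKP2 to recognise p27. The brighter CKS1B probe was at 5.78 and 5.85 in WT, 6.07 and 6.12 with NU6102, 5.65 and 5.60 in CDK2-/- and 5.52 and 5.51 in R50 cells. It rose with NU6102 by 0.28 (SE 0.05, limma adjusted p = 0.00781), but by 0.13 (adjusted p = 0.0567) after quantile normalization. The dimmer probe, whose letters cross the exon junction, gave 0.22 with NU6102 (adjusted p = 0.0165), which was 0.05 after quantile normalization and was called neither in a fit of the 4 arrays of that slide (adjusted p = 0.0649) nor without WT replicate 2 or WT+NU6102 replicate 2 (0.18 to 0.26). In R50 cells the brighter probe differed by −0.30 (adjusted p = 0.0152) and the dimmer by −0.27 (adjusted p = 0.0172). Each held in 5 of 8 fits with an array left out, the brighter failing without WT replicate 2, R50 replicate 1 or R50 replicate 2 (−0.34 to −0.26) and the dimmer without WT replicate 1, R50 replicate 1 or R50 replicate 2 (−0.31 to −0.24). In CDK2-/- cells the values were −0.19 (adjusted p = 0.0439) and −0.17 (adjusted p = 0.0483), and neither call held whichever array was left out. The brighter ran from −0.23 to −0.15 and the dimmer from −0.21 to −0.14.

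CKS2 was at 6.15 and 6.33 in WT, 6.17 and 6.21 with NU6102, 6.35 and 6.32 in CDK2-/- and 5.93 and 5.89 in R50 cells. The R50 arrays lay below all others. R50 differed by −0.42 from CDK2-/- within a slide (limma adjusted p = 0.00771) and by −0.33 from WT (adjusted p = 0.0268). The latter was called in 1 of 8 fits with an array left out, that without WT replicate 1 (−0.42 to −0.24). NU6102 (−0.05, 95% interval −0.23 to 0.13) and CDK2 knockout (0.09, 95% interval −0.09 to 0.27) gave no call.

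**Figure D3:**
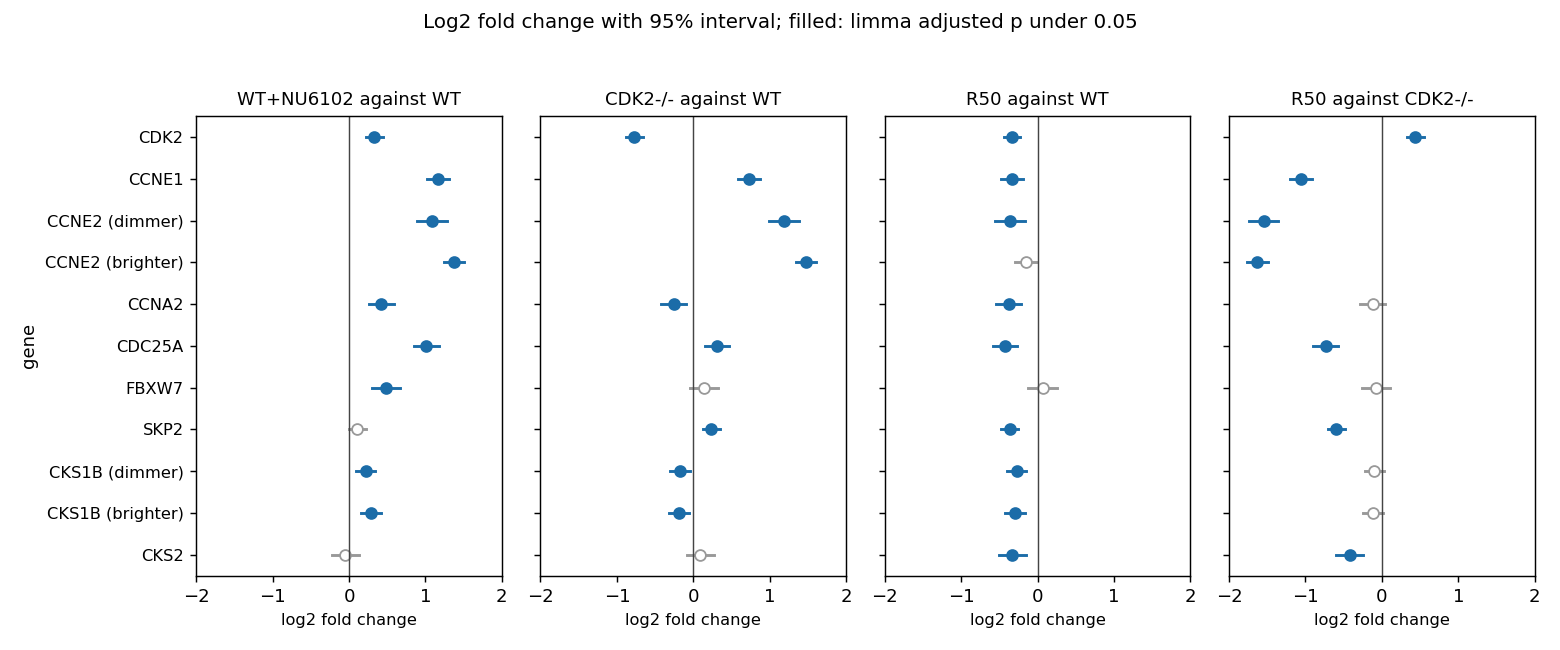
Log2 fold change (x axis) of each tested probe (y axis) in 4 comparisons, with the 95% interval of the limma fit. Filled points have an adjusted p under 0.05. WT+NU6102 against WT holds 9 filled points to the right of 0, R50 against WT 9 to the left, and CDK2-/- against WT 5 to the right and 4 to the left.

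Counted over the probes, 9 of the 11 rose with NU6102 and none fell, where 23.8% of all tested probes rose and 21.0% fell. They belong to 7 of the 9 genes. The median change of the 11 was 0.42 on the log2 scale, beside 0.03 over all tested probes. In CDK2-/- cells 5 were higher and 4 lower than in WT (16.1% and 15.0% of all tested probes), with a median of 0.14 beside 0.02. Fewer members were called without WT replicate 1, WT replicate 2 or CDK2-/- replicate 2, and fewer of all tested probes were called too. In R50 cells none was higher and 9 were lower than in WT (9.80% and 12.9%), of 7 genes, with a median of −0.33 beside −0.04. The count of 9 fell most without a WT or an R50 array, and so did the count over all tested probes. All members still called were lower. When the dim probes were also tested, 4 members were called in CDK2-/- cells, those of CDK2, CCNE1 and CCNE2. In R50 cells 2 were called, those of CDC25A and SKP2. Of all 50568 probes then tested, 5333 were called in CDK2-/- and 2353 in R50 cells. A probe that varies little passes at a small change, and the 9 called in R50 lay between −0.43 and −0.27.

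Within a slide, R50 against CDK2-/- gave 1 higher probe, that of CDK2, and 6 lower (14.9% and 19.8% of all tested probes), with a median of −0.42 beside −0.06. The lower probes were those of CCNE1, CCNE2, CDC25A, SKP2 and CKS2. These calls and that of CDK2 held whichever array was left out, while fewer of all tested probes were then called. Across slides and at different dose and time, all 11 probes were lower in R50 than in WT+NU6102 cells (28.7% of all tested probes lower, 22.9% higher), from −0.28 for CKS2 to −1.53 for the brighter CCNE2 probe. CDK2-/- against WT+NU6102 gave 7 lower and none higher (27.5% and 25.7%), CDK2 being lowest at −1.11. Comparisons with a group in common share its arrays, so these counts are not independent of each other. An F-test over the 4 groups at the methods' adjusted p of 0.001 was passed by 7 of the 11 probes, those of CDK2, CCNE1, CCNE2, CCNA2, CDC25A and SKP2, and by 21.2% of all tested probes.

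A list of 32 other genes that act on CDK2 or are among its substrates was read beside the members, and 30 of them were tested. With NU6102, 18 rose and 8 fell, where 23.8% and 21.0% of all tested probes did. CDK2-/- cells had 7 higher and 5 lower than WT (16.1% and 15.0% of all tested probes), and R50 cells 4 higher and 4 lower (9.80% and 12.9%). R50 against CDK2-/- gave 4 higher and 8 lower (14.9% and 19.8%). Outside the 18 rises with NU6102, the counts lay near those shares. The list was chosen with earlier results of these data known, so a count above those shares is no independent support.

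Among the inhibitors, CDKN1C, which encodes p57, fell with NU6102 (−1.40, SE 0.07, limma adjusted p = 0.000166), and its values in CDK2-/- and R50 cells, −0.06 and 0.06, were not called. CDKN1B, which encodes p27, fell with NU6102 (−0.55, adjusted p = 0.00223) and was lower in CDK2-/- than in WT cells (−0.51, adjusted p = 0.00516). In R50 cells it was at 0.02 against WT and, within a slide, 0.53 above CDK2-/- (adjusted p = 0.00398). CDKN1A, which encodes p21, was above WT in CDK2-/- cells (0.33, adjusted p = 0.0285) and in R50 cells (0.32, adjusted p = 0.0416), and its value of 0.04 with NU6102 was not called.

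The phosphatases CDC25B and CDC25C, known for their role at entry into mitosis, differed from CDC25A in direction, both with NU6102 and in R50 cells. CDC25B fell with NU6102 (−0.81, limma adjusted p = 0.000282) and CDC25C likewise (−0.51, adjusted p = 0.00105). In R50 cells they were 0.47 (adjusted p = 0.00427) and 0.59 (adjusted p = 0.00219) above WT, and CDC25C was 0.57 above CDK2-/- cells within a slide (adjusted p = 0.00111). WEE1, the kinase that opposes these phosphatases, fell with NU6102 (−0.45, adjusted p = 0.00273) and stood below WT in R50 cells (−0.24, adjusted p = 0.0483). CDK7, the catalytic subunit of the CDK-activating kinase, rose by 0.47 with NU6102 (adjusted p = 0.00114) and was lower in CDK2-/- than in WT cells (−0.34, adjusted p = 0.00604), as was MNAT1, its assembly factor (−0.29, adjusted p = 0.0346). Within a slide CDK7 was 0.44 higher in R50 than in CDK2-/- cells (adjusted p = 0.00226). The cofactor gene CABLES1 stood below WT in R50 cells (−0.38, adjusted p = 0.00564).

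Of 11 substrates tested, 9 rose with NU6102 and 1 fell (23.8% and 21.0% of all tested probes), the pocket protein gene RBL2 (−1.03, limma adjusted p = 0.000765). CDC6, which loads the replicative helicase onto origins, rose by 0.82 with NU6102 (SE 0.07, adjusted p = 0.000474) and was 0.64 above WT in CDK2-/- cells (adjusted p = 0.0018). In R50 cells it was at −0.31 (adjusted p = 0.0264), and below CDK2-/- cells within a slide (−0.95, adjusted p = 0.000436). CDT1, its partner at origins, took 0.35, 0.64 and −0.09 against WT in the same order of groups, the last not called, and was lower in R50 than in CDK2-/- cells (−0.73, adjusted p = 0.00254). MYBL2, a transcription factor gene, rose by 0.73 with NU6102 (adjusted p = 0.0011) and was lower in R50 than in CDK2-/- cells (−0.48, adjusted p = 0.00668), and CCP110, which encodes a centriole protein, rose by 0.69 with NU6102 (adjusted p = 0.00158). RBL1, the gene of the pocket protein p107, rose by 0.64 with NU6102 (adjusted p = 0.00113) and stood below WT in CDK2-/- cells (−0.24, adjusted p = 0.0474) and in R50 cells (−0.27, adjusted p = 0.0449). RB1, the retinoblastoma gene, was 0.87 above WT in CDK2-/- cells (adjusted p = 0.000449), 0.60 in R50 cells (adjusted p = 0.00284) and 0.42 with NU6102 (adjusted p = 0.00279). Its order thus differed from that of CCNE1, CDC25A and CDC6, which were lower in R50 than in WT cells. Of 6 ubiquitin ligase partners, among them SKP1, CUL1 and RBX1 of the SCF complex, 4 rose with NU6102 and BTRC, a receptor of another SCF ligase, fell (−0.20, adjusted p = 0.0116), beside 23.8% and 21.0% of all tested probes. In CDK2-/- and R50 cells none was called in either direction against WT. The calls on these other genes were not repeated with arrays left out.

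**Figure D4:**
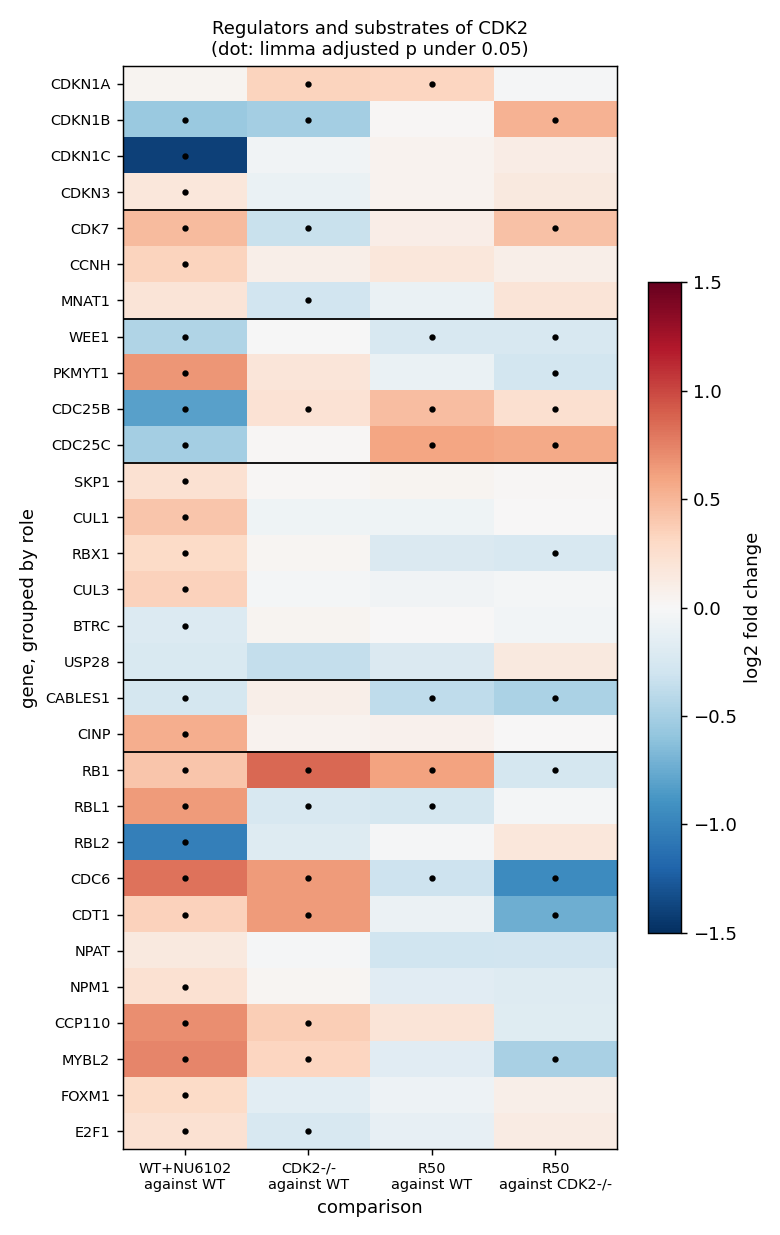
Log2 fold change (colour scale, red higher, blue lower) of the 30 tested regulators and substrates of CDK2 (y axis) in 4 comparisons (x axis). Dots mark a limma adjusted p under 0.05 and black lines part the roles, from top to bottom inhibitors, CDK-activating kinase, tyrosine kinases and phosphatases, ubiquitin ligase partners, cofactors and substrates. The darkest blue is CDKN1C with NU6102 at −1.40, and the darkest red RB1 in CDK2-/- cells at 0.87.

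Genes with the most similar pattern over the 8 arrays were found by the smallest root mean square difference after each gene was centred on its mean. The 4389 candidate genes had a brightest probe past the F-test over the 4 groups and well above background on all 8 arrays. The medians given here are therefore distances to genes that differed between the groups, not to all tested genes. For CDK2 these were NUAK2 (0.042), CTPS (0.055) and PDXK (0.065), in log2 units, where the median candidate lay at 0.54. For CCNE1 they were VCAN (0.065), MARCH3 (0.087) and MOSPD1 (0.12), beside a median of 0.68. For CCNE2 they were KSR2 (0.16), MID1 (0.16) and MOSPD1 (0.19), beside 0.82. The 8 arrays are 4 pairs of replicates, so a pattern has little more than 4 independent levels.

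The stretches before the transcription starts of 8 of the 10 genes were in the RefSeq promoter table for GRCh38.p14. CDK2 and CCNE2 have no entry there. The 250 bases before each start were searched on both strands for 4 spellings of the E2F motif (TTTCCCGC, TTTCGCGC, TTTGGCGC and TTTGCCGC), for the CCAAT box (CCAAT) and for the CHR element (TTTGAA), and no match found overlapped another. Of the 35116 promoters in the table, 2.79% hold an E2F spelling, 32.0% a CCAAT box and 13.3% a CHR element. The CDC25A window holds 1 E2F spelling, TTTGGCGC, 44 bases before the start, and 2 CCAAT boxes. The CCNA2 window holds 1 CCAAT box, 56 bases before the start. CKS1B has 5 CCAAT boxes and 1 CHR element and CKS2 has 3 and 1. The windows of CCNE1, CCNA1 and SKP2 hold none of these letters, and of 4 FBXW7 entries 1 holds a CHR element. A match is a description of the letters and no evidence of binding. The absence of a match says nothing about other spellings of these motifs, or about letters outside this window.

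The CDC25A and CCNA2 windows are printed 5′ to 3′ on the strand of the gene. Both genes rose with NU6102 and were lower than WT in R50 cells. CCNE1, whose window holds no match, did so too (log2 fold changes 1.17 and −0.33), as did CDK2 and CKS1B. A link between these letters and the levels was not tested. Capitals mark the matches, a CCAAT box on the opposite strand reading ATTGG. In GRCh38.p14 they are chr3:48188418-48188667 (CDC25A, minus strand) and chr4:121823884-121824133 (CCNA2, minus strand).
CDC25A: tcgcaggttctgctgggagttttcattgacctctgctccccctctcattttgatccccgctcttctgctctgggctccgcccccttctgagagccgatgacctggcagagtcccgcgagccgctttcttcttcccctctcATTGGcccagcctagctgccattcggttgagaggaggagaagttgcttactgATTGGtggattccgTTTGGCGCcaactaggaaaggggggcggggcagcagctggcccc
CCNA2: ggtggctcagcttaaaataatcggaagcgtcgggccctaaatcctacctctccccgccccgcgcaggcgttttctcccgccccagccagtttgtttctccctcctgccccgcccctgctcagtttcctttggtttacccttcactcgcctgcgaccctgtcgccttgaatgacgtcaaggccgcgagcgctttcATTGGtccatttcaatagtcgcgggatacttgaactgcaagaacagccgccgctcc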

How the data were processed

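The deposited scanner tables hold a background-subtracted intensity per spot (Agilent Feature Extraction 11.5.1.1, by the submitters' processing notes), and the arrays were not normalized to each other. A further table deposited by the authors has log2 values processed with GeneSpring GX, which fit the same signal scaled to each array's 75th percentile with each probe centred on its median; these were used as an alternative. Their positions are in hg19 per the file headers.

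The intensity of each usable non-control spot was averaged by probe as log2, less the array's 75th percentile. Control spots and outlier spots were left out, and 31 of 50599 probes had no usable spot. To be tested, a probe had to be well above background on each of the 2 arrays of some group. The 4 groups were fitted together on all 28677 such probes with limma 3.58.1 in R 4.3.3, and a change was called at a Benjamini-Hochberg adjusted p under 0.05 with no minimum fold. The fit was checked on simulated data: of 200 changed probes, the contrast of WT+NU6102 with WT recovered 85.4% of those changed by 2 log2 units and 74.0% of those changed by 1, with 6 false calls. For CDK2-/- against WT these were 87.3% and 66.7% with 3 false calls, and for R50 against WT 88.6% and 62.1% with 10. The simulated noise was independent between arrays and had no slide effect. Far more probes were called in the real data, 12846 for WT+NU6102 against WT. These rates therefore do not carry over to the real contrasts. With 2 arrays per group the number of arrays limits the precision.

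The members, the 32 neighbouring genes and the markers were chosen with earlier results of these data known. All member probes are described. Of the neighbouring genes, the text names for each comparison with WT and for R50 against CDK2-/- the 3 largest called rises and falls, and besides these CDKN1A, WEE1, BTRC and the SCF genes, which were chosen after their values were seen. Genes of similar pattern were the 3 nearest by root mean square difference, among genes past the F-test and well above background on all arrays. Alternatives were normexp background correction (offset 50), quantile normalization, testing every probe or only those above background throughout, the deposited processed values, a prior variance that follows the intensity, a replicate block, each array left out, a fit within each slide, a minimum log2 fold change of 1, and the methods' ANOVA and t-test. Promoter windows were read with pandas 2.3.3 and figures drawn with matplotlib 3.10.9. No authors' comparison columns were used.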

Additional observations from a re-analysis of the deposited data

How the results depend on the processing

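No called fold change of a member probe reversed under any of the alternatives run. The counts of called members in WT+NU6102 against WT and in R50 against CDK2-/- moved by over 1.5 times only with a minimum log2 fold change of 1, which left 4 and 3 of 11. The same minimum left 2 in CDK2-/- and 0 in R50 against WT, and 1860, 1363, 743 and 1489 probes of all tested for WT+NU6102, CDK2-/- and R50 against WT and R50 against CDK2-/-. Without a filter on dim probes, 4 members were called in CDK2-/- and 2 in R50 against WT, with 5333 and 2353 probes in all and 6233 for R50 against CDK2-/-. In that setting 50568 probes were adjusted together. The methods' t-test after Benjamini-Hochberg called 3 members in CDK2-/- and 0 in R50 against WT, of 1434 and 13 probes in all, with 5299 for WT+NU6102 against WT and 2167 for R50 against CDK2-/-. At an unadjusted p under 0.05 it called 7 members and 7420 of all tested probes in R50 against WT, and limma, unadjusted, 10 members and 10591 probes (36.9%). The F-test passed 6089 probes, 9306 with normexp, 926 without a filter, 11686 when the prior variance followed the intensity and 2248 by the methods' ANOVA; the cause was not tested.

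When arrays were left out one at a time, the members called numbered 8 to 9 for WT+NU6102, 4 to 7 for CDK2-/- and 4 to 8 for R50 against WT, and 7 to 7 for R50 against CDK2-/-. All probes called numbered 9954 to 12553, 5209 to 8350, 2761 to 5154 and 6355 to 9051, and the F-test passed 510 to 1537. A group then left with 1 array is assumed to vary like the others.

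Arrays with the same replicate number shared only a number, with correlations of their deviations between −0.03 and 0.05. With a replicate block, 9, 7 and 9 members were called in WT+NU6102, CDK2-/- and R50 against WT and 7 in R50 against CDK2-/-. In the same order, 12448, 8297, 5652 and 9418 of all 28677 tested probes were called. The F-test passed 2066 probes. The calls lost were those of both CKS1B probes in CDK2-/- cells (adjusted p = 0.0679 and 0.0749).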
